A study of Mus musculus with 7 samples.

Results

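The expression of 10 genes that mark endothelial cells was followed in RNA sequencing of mouse kidney: Pecam1, Cdh5, Kdr, Flt1, Tek, Tie1, Eng, Emcn, Plvap and Ehd3. They are a list of names, with no threshold on measured values, and all 10 were found among the 17537 genes listed and among the 13976 genes tested. The 7 libraries were made from polyA RNA of renal tissue of C57BL/6 mice, with a kit that keeps the strand. The 3 groups were controls (C), which had no diabetes and are numbered 2, 8 and 9 in the labels, untreated diabetic mice (DM-22, numbered 1 and 2), and diabetic mice under an inhibitor of the glucose transporter SGLT2 (DM+SGLT2i, numbered 1 and 2). Diabetes was induced by streptozotocin (60 mg/kg on 5 days), which is toxic to pancreatic beta cells, in males aged 8 to 10 weeks per the labels, and the study's methods name mice of both sexes and give age-matched controls the citrate solvent. The labels give the same age range for the controls. Dapagliflozin, which blocks glucose uptake from the urine in the proximal tubule, was given in the drinking water at 25 mg/kg for 6 weeks from week 16, and all 3 groups were followed to week 22. No group of control mice with dapagliflozin was among these libraries. The labels do not say that each library came from a separate mouse, so that the p-values measure the spread between these libraries only. Renal tissue was used in bulk, and in such RNA fewer endothelial cells and less RNA per endothelial cell cannot be told apart.

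The endothelium lines every vessel of the kidney and differs along them. Glomerular capillaries are highly fenestrated without diaphragms and filter plasma, peritubular capillaries have diaphragms across their fenestrae and take up what the tubules reabsorb, and the vasa recta supply the medulla. Endothelial cells are held together by PECAM1 and VE-cadherin, they live on VEGF from podocytes and tubules, and their quiescence depends on angiopoietins acting on the TIE receptors and on BMP ligands acting through endoglin. Injury and loss of these capillaries accompany diabetic kidney disease.

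The libraries held between 46456125 and 56541594 reads on the genes listed, and each member had at least 1468 reads in each library (Ehd3 in control replicate 8) and at most 20720 (Plvap in DM-22 replicate 1). Values are CPM, read counts brought to one library size, and they are divided by the length of the merged exons in kilobases where genes are compared with each other. Per kilobase, Plvap was the most abundant member, with 125 ± 37.8 CPM (mean and SD over the 7 libraries), followed by Eng with 45.2 ± 8.54 CPM. Both stood above the next gene in 7 of 7 libraries, with ranges that did not overlap. Pecam1 (14.1 ± 2.31 CPM per kilobase), Cdh5 (12.7 ± 2.67), Emcn (11.3 ± 1.62), Tie1 (11.2 ± 1.03), Tek (10.7 ± 1.07) and Kdr (10.04 ± 2.12) formed a middle group, in which the ranges of neighbours in the order overlapped. Ehd3, with 6.88 ± 1.55 CPM per kilobase, and Flt1, with 6.47 ± 0.569, were lowest, and Ehd3 lay above Flt1 in 4 of the 7 libraries. Merged exons include those of all annotated transcripts, so that the level per kilobase of Flt1, with 13504 exon bases, is understated where short transcripts prevail.

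The libraries differed in markers of other kidney cells, and these values stand beside the results that follow. The summed level of 8 proximal tubule genes, with Slc34a1 and Slc5a2 among them, was 8609 CPM in control replicate 2 but 35499 and 32554 CPM in control replicates 8 and 9. It was 19452 and 36283 CPM in the DM-22 libraries and 17287 and 21832 CPM in the DM+SGLT2i libraries. Control replicate 2 therefore stood apart from its group, and it was also the highest library for 10 macrophage and leukocyte genes, at 382 CPM against 136 to 232 CPM elsewhere. The DM-22 libraries differed from each other: the 8 distal nephron genes summed to 13886 and 5623 CPM, and 7 genes of the urothelium and inner medulla to 292 and 6.47 CPM, in replicates 1 and 2. Most of the distal nephron sum was Umod (6933 and 2337 CPM) and Slc12a1 (5580 and 602 CPM), and Aqp2 was also higher in replicate 1. Slc12a3 (340 and 1523 CPM), Calb1 (301 and 736 CPM), Scnn1g, Atp6v1g3 and Slc26a4 were lower in replicate 1 than in replicate 2. In DM+SGLT2i replicate 1, 12 pericyte and smooth muscle genes summed to 998 CPM, against 274 to 503 CPM in the other libraries, and Adipoq, the adipocyte hormone adiponectin, was at 76.0 CPM against 0.139 to 3.31 CPM. The part of these differences in the results was not tested. Fold changes of the members and medians of the lists against controls are given with all 3 controls and again without control replicate 2, and for other genes the second value is given where it differed in sign or by over 1.5 times.

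**Figure D1:**
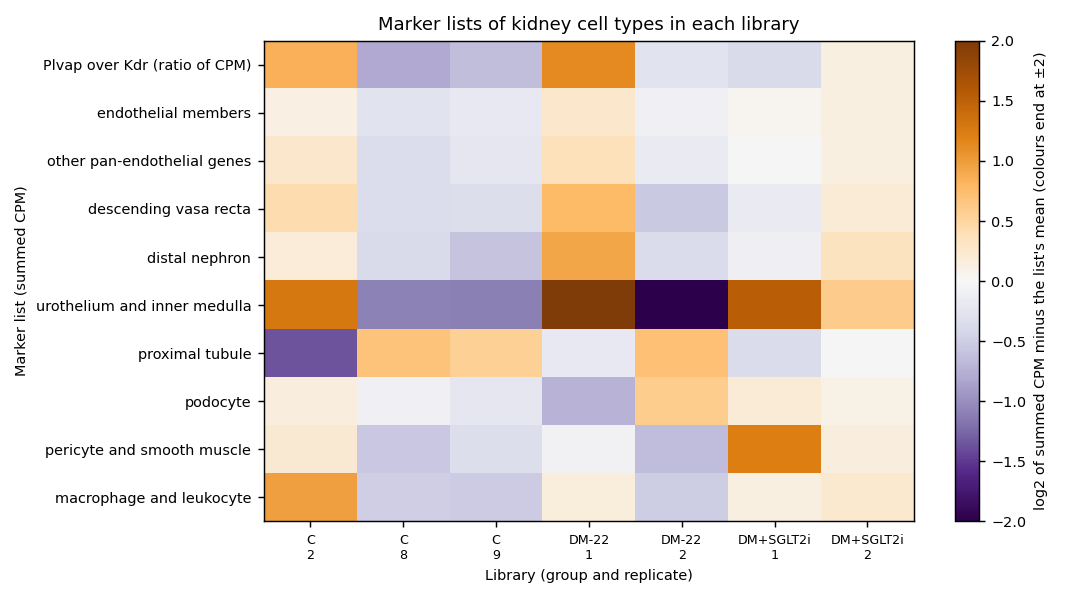
Summed level of marker lists in each of the 7 libraries, as log2 of summed CPM minus the list's mean (colours), with the ratio of Plvap to Kdr in the top row. DM-22 replicate 1 and control replicate 2 are highest for that ratio and for descending vasa recta, and control replicate 2 is lowest for proximal tubule at 8609 CPM. The descending vasa recta sum is mostly Aqp1.

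At an adjusted p-value under 0.05, limma called 0 members in any comparison. Among all genes tested it also called 0 (0% in DM-22 and 0% in DM+SGLT2i against controls, 0% between the diabetic groups), and at an unadjusted p under 0.05 it gave 625, 151 and 547 genes, or 4.47%, 1.08% and 3.91%. With the voom weights of limma on recovered reads there were also 0 calls, with 517, 148 and 533 genes at the unadjusted level. Without control replicate 2, 0.0144% of 13841 genes passed the adjusted threshold in DM-22 and 0.123% in DM+SGLT2i mice, again with 0 members among them. The values of the members are therefore a description of size and spread, given next by the role of each gene.

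**Figure D2:**
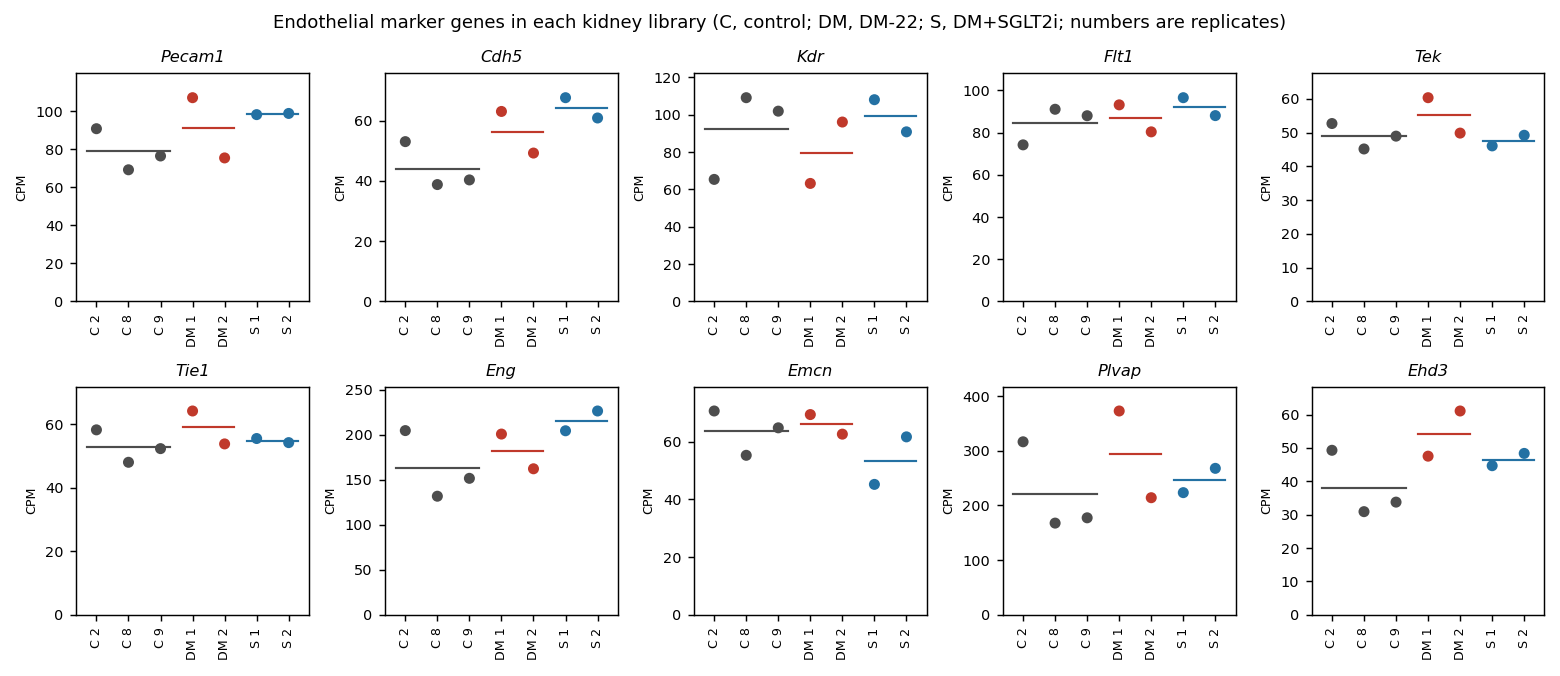
CPM of the 10 members in each library (points, y axes from 0), with a line at the mean of each group (3 controls, 2 DM-22 and 2 DM+SGLT2i libraries). For Cdh5, Tie1, Eng, Plvap and Ehd3, control replicates 8 and 9 lie below the other 5 libraries, while Kdr is lowest in control replicate 2 and DM-22 replicate 1, at 65.4 and 63.2 CPM.

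Pecam1 (ENSMUSG00000020717, chromosome 11, 106654217 to 106750628 of GRCm38) encodes the adhesion molecule CD31, and Cdh5 (ENSMUSG00000031871, chromosome 8, 104101625 to 104144511) encodes VE-cadherin of the adherens junctions. Pecam1 was at 90.8, 69.2 and 76.4 CPM in control replicates 2, 8 and 9, at 107 and 75.4 CPM in the DM-22 libraries and at 98.2 and 98.8 CPM in the DM+SGLT2i libraries. Both DM+SGLT2i libraries lay above all 3 controls, whereas DM-22 replicate 2 lay within the range of the controls. Its log2 fold change, with the standard error (SE) of the limma fit, was 0.20 ± 0.19 (SE, adjusted p = 0.821) in DM-22 and 0.33 ± 0.19 (SE, adjusted p = 0.9997) in DM+SGLT2i mice. With control replicates 8 and 9 alone these were 0.30 ± 0.18 (SE, adjusted p = 0.341) and 0.43 ± 0.18 (SE, adjusted p = 0.291). Cdh5 was at 53.1, 38.8 and 40.3 CPM in the controls, at 63.1 and 49.3 CPM in the DM-22 libraries and at 67.6 and 60.9 CPM in the DM+SGLT2i libraries. DM+SGLT2i was again above every control, and DM-22 replicate 2 was below 1 control, replicate 2. The log2 fold change of Cdh5 was 0.35 ± 0.19 (SE, adjusted p = 0.804) in DM-22 mice. In DM+SGLT2i mice it was 0.55 ± 0.19 (SE, adjusted p = 0.9997), with an unadjusted p of 0.0247, the smallest of a member in these comparisons with all 3 controls. Without control replicate 2 the values for Cdh5 were 0.49 ± 0.15 (SE, adjusted p = 0.135) and 0.69 ± 0.15 (SE, adjusted p = 0.129). The ratio of Cdh5 to Pecam1 was between 0.528 and 0.689 over the 7 libraries.

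Kdr (ENSMUSG00000062960, chromosome 5, 75932827 to 75978458) encodes VEGFR2, the main signalling receptor of VEGF-A, and Flt1 (ENSMUSG00000029648, chromosome 5, 147561604 to 147726011) encodes VEGFR1, which binds VEGF-A tightly and also exists as a soluble decoy. Their promoters are shown because these receptors share a ligand, and a tie of the sequences to the levels was not tested. The 250 bases before the start of each gene, from RefSeq on GRCm38.p6, are written 5′ to 3′ on the gene's strand, here the minus strand, with matches to AGGAAG, 1 form of the site of ETS factors, in capitals (either strand):
Kdr (chr5:75978456-75978705): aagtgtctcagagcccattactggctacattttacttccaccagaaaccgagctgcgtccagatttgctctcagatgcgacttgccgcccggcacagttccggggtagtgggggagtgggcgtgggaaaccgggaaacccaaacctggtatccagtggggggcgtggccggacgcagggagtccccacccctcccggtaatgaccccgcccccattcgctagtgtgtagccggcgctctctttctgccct
Flt1 (chr5:147726012-147726261): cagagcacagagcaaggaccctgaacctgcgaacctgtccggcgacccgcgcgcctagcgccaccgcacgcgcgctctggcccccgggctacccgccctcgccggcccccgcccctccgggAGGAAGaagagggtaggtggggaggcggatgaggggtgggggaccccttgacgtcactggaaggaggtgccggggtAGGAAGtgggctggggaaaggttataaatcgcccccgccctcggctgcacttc
Searches were also made for AACAGGAA (a FOX and ETS composite, which overlaps AGGAAG where a G follows), AGATAA (for GATA factors) and CCACACCC (for KLF factors) on both strands, and no match to these was found in either window. AGGAAG was found in 2 places in the Flt1 window and in 0 in that of Kdr. Apart from the composite, other forms of the ETS site were not searched for, so that these counts hold for AGGAAG alone. RefSeq promoters were at hand for 7 of the 10 members (Kdr, Flt1, Tek, Tie1, Eng, Emcn and Ehd3), of which 4 held AGGAAG, 1 AACAGGAA, 0 AGATAA and 1 CCACACCC. Among all 32851 promoter windows of that length, 29.5% held AGGAAG, 2.25% AACAGGAA, 9.99% AGATAA and 3.20% CCACACCC. A match is a description of the letters only.

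Kdr was at 65.4, 109 and 102 CPM in control replicates 2, 8 and 9, at 63.2 and 96.1 CPM in DM-22 replicates 1 and 2, and at 108 and 90.8 CPM in DM+SGLT2i replicates 1 and 2. Low values occurred in 1 control and 1 DM-22 library, and the other 5 libraries lay between 90.8 and 109 CPM, so that the groups overlapped. The log2 fold change of Kdr in DM-22 mice was -0.21 ± 0.28 (SE, adjusted p = 0.865) with all 3 controls and -0.43 ± 0.22 (SE, adjusted p = 0.270) without control replicate 2. In DM+SGLT2i mice it was 0.14 ± 0.28 (SE, adjusted p = 0.9997) with all 3 controls and turned to -0.090 ± 0.22 (SE, adjusted p = 0.855) without that replicate. Without DM-22 replicate 1 it was 0.095 in DM-22 mice, so that with all 3 controls its sign there rested on 1 library. Both DM-22 libraries were below control replicates 8 and 9. Flt1 varied little, with 74.2, 91.0 and 88.0 CPM in the controls, 93.1 and 80.3 CPM in the DM-22 libraries and 96.5 and 88.0 CPM in the DM+SGLT2i libraries. Its log2 fold change in DM-22 mice was 0.041 ± 0.15 (SE, adjusted p = 0.960), which turned to -0.049 without control replicate 2 and to -0.048 when libraries were scaled by their totals alone. In DM+SGLT2i mice the change of Flt1 was 0.13 ± 0.15 (SE, adjusted p = 0.9997) with all 3 controls and 0.042 ± 0.13 (SE, adjusted p = 0.885) without control replicate 2. The 95% interval of the change of Flt1 in DM-22 mice with all 3 controls was -0.32 to 0.40. The ratio of Flt1 to Kdr was 1.13 in control replicate 2 and 1.47 in DM-22 replicate 1, against 0.834 to 0.969 in the other 5 libraries.

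Of 13 ligands and co-receptors of the VEGF and angiopoietin receptors, 11 were tested and 0 passed the adjusted threshold in any comparison, with or without control replicate 2. Their median log2 change was -0.061 in DM-22 and 0.16 in DM+SGLT2i mice, beside 0.0045 and -0.013 over all genes tested. The medians without control replicate 2 were -0.012 and 0.26, beside 0.0034 and -0.025 over all genes. Vegfa, the ligand of both receptors, was at 64.8, 184 and 244 CPM in the controls, at 74.0 and 88.7 CPM in the DM-22 libraries and at 121 and 90.1 CPM in the DM+SGLT2i libraries. Control replicates 8 and 9 were above the 4 diabetic libraries, and control replicate 2 was the lowest of all 7. The log2 fold change of Vegfa in DM-22 mice was -0.81 ± 0.53 (SE, adjusted p = 0.804) with all 3 controls and -1.38 ± 0.22 (SE, adjusted p = 0.0820) without replicate 2. In DM+SGLT2i mice the values were -0.45 ± 0.53 (SE, adjusted p = 0.9997) and -1.02 ± 0.22 (SE, adjusted p = 0.122). Vegfd, a ligand of VEGFR3 that is best known from lymphatic vessels, was at 28.3, 9.79 and 10.02 CPM in the controls, 10.3 and 14.7 CPM in the DM-22 and 21.1 and 20.2 CPM in the DM+SGLT2i libraries. Its log2 fold change in DM+SGLT2i mice was 0.53 ± 0.46 (SE, adjusted p = 0.9997) with all 3 controls and 1.02 ± 0.19 (SE, adjusted p = 0.1005) without control replicate 2, which was the highest library. Flt4, the gene of VEGFR3 itself, was at 29.0 and 28.1 CPM in the DM+SGLT2i libraries, both above the 3 controls at 25.1, 21.4 and 21.5 CPM, with a log2 fold change of 0.33 ± 0.19 (SE, adjusted p = 0.9997). The co-receptor Nrp2 was at 29.0 and 18.1 CPM in the DM-22 and 41.1 and 34.5 CPM in the DM+SGLT2i libraries, a log2 difference of 0.70 ± 0.26 (SE, adjusted p = 0.881) between them.

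**Figure D3:**
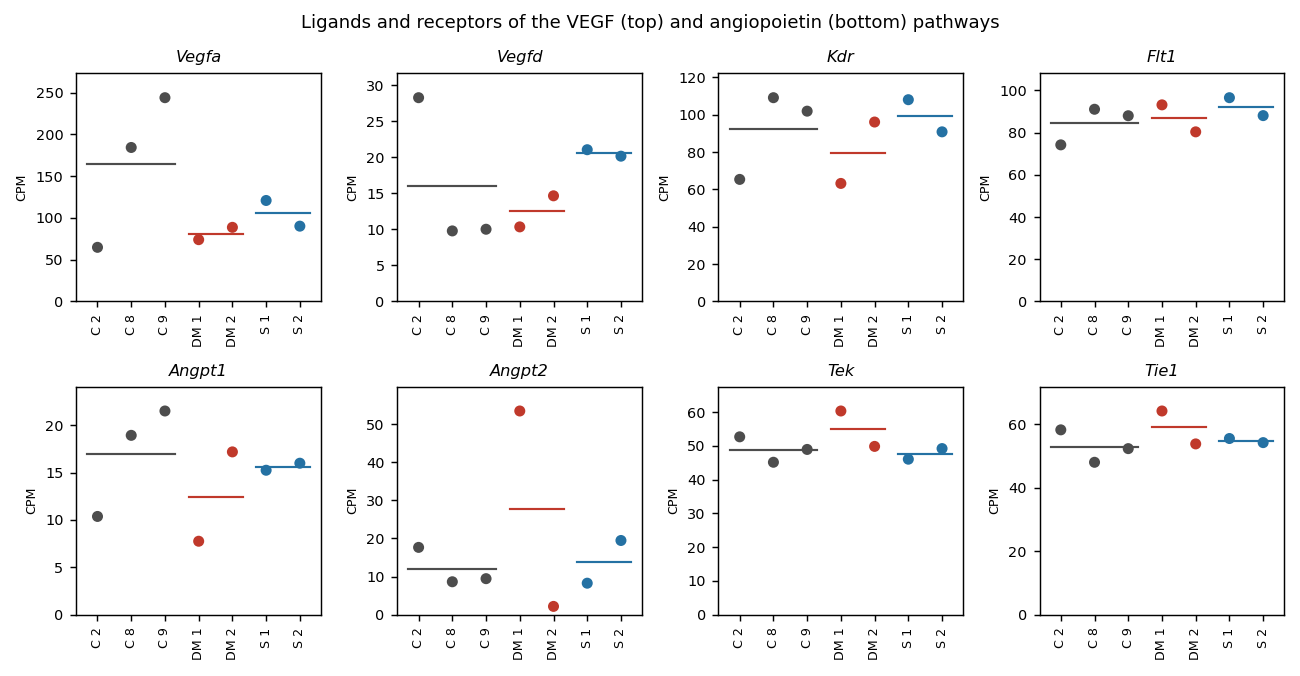
CPM of VEGF ligands and receptors (top) and of angiopoietins and TIE receptors (bottom) in each library (points, y axes from 0), with a line at each group's mean. Vegfa was 184 and 244 CPM in control replicates 8 and 9 and at most 121 CPM in the other 5 libraries, and Angpt2 was 53.4 CPM in DM-22 replicate 1 and at most 19.5 CPM elsewhere.

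Tek (ENSMUSG00000006386, chromosome 4, 94739289 to 94874976) encodes TIE2, the receptor of the angiopoietins, and Tie1 (ENSMUSG00000033191, chromosome 4, 118471191 to 118490061) encodes its partner receptor. Tek was at 52.7, 45.1 and 48.9 CPM in the controls, at 60.3 and 49.8 CPM in the DM-22 libraries and at 46.0 and 49.2 CPM in the DM+SGLT2i libraries. The DM-22 libraries lay above both DM+SGLT2i libraries, narrowly in the case of DM-22 replicate 2. For Tek, the log2 fold change was 0.17 ± 0.14 (SE, adjusted p = 0.812) in DM-22 and -0.036 ± 0.14 (SE, adjusted p = 0.9997) in DM+SGLT2i mice. Leaving out control replicate 2 gave 0.22 ± 0.14 (SE, adjusted p = 0.352) and 0.018 ± 0.14 (SE, adjusted p = 0.957). Tie1 was at 58.3, 48.1 and 52.4 CPM, 64.2 and 53.9 CPM and 55.6 and 54.3 CPM in the same order, and control replicate 8 was the lowest and DM-22 replicate 1 the highest library. For Tie1, the log2 fold change was 0.16 ± 0.14 (SE, adjusted p = 0.816) in DM-22 and 0.057 ± 0.14 (SE, adjusted p = 0.9997) in DM+SGLT2i mice. These were 0.23 ± 0.13 (SE, adjusted p = 0.321) and 0.13 ± 0.13 (SE, adjusted p = 0.639) without control replicate 2. The receptors kept nearly the same proportion, with a ratio of Tie1 to Tek between 1.06 and 1.21. Angpt1, the activating ligand made by pericytes and other perivascular cells, was at 10.4, 18.9 and 21.5 CPM in the controls, 7.76 and 17.2 CPM in the DM-22 and 15.2 and 15.99 CPM in the DM+SGLT2i libraries. It was lowest in the control and DM-22 libraries that were also lowest for Kdr. Angpt2, a context-dependent antagonist stored in endothelial cells, ranged from 2.20 CPM in DM-22 replicate 2 to 53.4 CPM in DM-22 replicate 1, with controls at 17.7, 8.65 and 9.47 CPM and DM+SGLT2i libraries at 8.28 and 19.5 CPM. The lowest and the highest library were thus both from DM-22, and its log2 fold change there was 0.027 ± 1.17 (SE, adjusted p = 0.996) with all 3 controls and 0.34 ± 1.32 (SE, adjusted p = 0.890) without control replicate 2. Svep1, a large extracellular matrix protein, had the smallest p of this list with all 3 controls, at 33.8, 23.1 and 31.3 CPM in the controls, 14.5 and 13.99 CPM in the DM-22 and 52.3 and 36.8 CPM in the DM+SGLT2i libraries. The groups did not overlap, with log2 differences of -1.004 ± 0.22 (SE, adjusted p = 0.804) in DM-22 mice, 0.59 ± 0.22 (SE, adjusted p = 0.9997) in DM+SGLT2i mice and 1.59 ± 0.25 (SE, adjusted p = 0.881) between the diabetic groups. The last had an unadjusted p of 0.00043.

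Eng (ENSMUSG00000026814, chromosome 2, 32646595 to 32682669) encodes endoglin, a co-receptor that presents BMP9 and related ligands to the kinase ALK1. Its 250 bases before the RefSeq start on the plus strand are shown with those of Emcn, since both windows hold AGGAAG in 2 places, and in Emcn the first overlaps a match to AACAGGAA (matches to both in capitals, either strand):
Eng (chr2:32646345-32646594): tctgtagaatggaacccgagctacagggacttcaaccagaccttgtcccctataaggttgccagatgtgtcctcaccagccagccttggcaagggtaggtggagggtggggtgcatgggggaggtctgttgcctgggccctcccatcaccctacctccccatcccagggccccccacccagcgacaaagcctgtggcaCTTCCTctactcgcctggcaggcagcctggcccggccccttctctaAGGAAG
Emcn (chr3:137340828-137341077): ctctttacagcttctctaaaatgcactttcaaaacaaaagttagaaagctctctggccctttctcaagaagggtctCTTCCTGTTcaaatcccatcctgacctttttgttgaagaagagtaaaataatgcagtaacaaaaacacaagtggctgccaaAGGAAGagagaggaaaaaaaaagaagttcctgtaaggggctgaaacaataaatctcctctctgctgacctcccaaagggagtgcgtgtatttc
Eng was at 204, 132 and 151 CPM in the controls, at 201 and 162 CPM in the DM-22 libraries and at 204 and 226 CPM in the DM+SGLT2i libraries. The DM+SGLT2i libraries were above both DM-22 libraries, and replicate 1 was below control replicate 2 by a small margin. The log2 fold change of Eng was 0.17 ± 0.22 (SE, adjusted p = 0.858) in DM-22 and 0.43 ± 0.22 (SE, adjusted p = 0.9997) in DM+SGLT2i mice. These were 0.35 ± 0.16 (SE, adjusted p = 0.235) and 0.60 ± 0.16 (SE, adjusted p = 0.163) without control replicate 2. Between the diabetic groups it was 0.25 ± 0.24 (SE, adjusted p = 0.881). Of 23 other genes of this pathway, 21 were tested and 0 passed the adjusted threshold in any comparison. Their median log2 change was -0.18 in DM-22 and 0.00073 in DM+SGLT2i mice, and -0.15 and 0.021 without control replicate 2. Acvrl1, the gene of ALK1, was at 33.1, 17.7 and 21.8 CPM in the controls, 29.4 and 23.5 CPM in the DM-22 and 23.6 and 27.8 CPM in the DM+SGLT2i libraries, and like Eng it was lower in control replicates 8 and 9 than in the other 5 libraries. Smad7, an inhibitor of the receptor kinases, was at 18.5, 32.2 and 36.8 CPM in the controls, 19.9 and 21.4 CPM in the DM-22 and 18.4 and 19.7 CPM in the DM+SGLT2i libraries. For Smad7, the log2 fold change without control replicate 2 was -0.73 ± 0.13 (SE, adjusted p = 0.0820) in DM-22 and -0.84 ± 0.13 (SE, adjusted p = 0.0845) in DM+SGLT2i mice. With all 3 controls it was -0.43 ± 0.29 (SE, adjusted p = 0.804) and -0.55 ± 0.29 (SE, adjusted p = 0.9997). Id3, a target of BMP signalling, was at 31.2 and 33.7 CPM in the DM+SGLT2i libraries, below the 3 controls at 40.2, 52.2 and 68.2 CPM, with a log2 fold change of -0.68 ± 0.25 (SE, adjusted p = 0.9997). Tgfbr2 had a log2 fold change of -0.28 ± 0.15 (SE, adjusted p = 0.804) and Smad4 one of 0.28 ± 0.14 (SE, adjusted p = 0.804) in DM-22 mice, and Id2 differed by -0.76 ± 0.40 (SE, adjusted p = 0.881) between the diabetic groups. The receptor Acvr2b, at 2.71, 7.62 and 6.94 CPM in the controls and 3.74 and 3.79 CPM in the DM-22 libraries, had a log2 fold change of -0.87 ± 0.20 (SE, adjusted p = 0.0944) in DM-22 mice without control replicate 2 and -0.44 ± 0.42 (SE, adjusted p = 0.818) with all 3 controls.

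Emcn (ENSMUSG00000054690, chromosome 3, 137341067 to 137432185) encodes endomucin, a sialomucin of capillary and venous endothelium that hinders leukocyte adhesion. It was at 70.6, 55.3 and 64.8 CPM in the controls, at 69.4 and 62.6 CPM in the DM-22 libraries and at 45.2 and 61.7 CPM in the DM+SGLT2i libraries. DM+SGLT2i replicate 1 was the lowest of the 7 libraries, and the controls spanned both DM-22 libraries. Its log2 fold change was 0.059 ± 0.18 (SE, adjusted p = 0.950) in DM-22 mice, with the opposite sign (-0.029) when libraries were scaled by their totals alone, and -0.26 ± 0.18 (SE, adjusted p = 0.9997) in DM+SGLT2i mice. Leaving out control replicate 2 gave values for Emcn of 0.14 ± 0.18 (SE, adjusted p = 0.657) and -0.18 ± 0.18 (SE, adjusted p = 0.639). The difference between the diabetic groups was -0.32 ± 0.20 (SE, adjusted p = 0.881), and it was -0.095 without DM+SGLT2i replicate 1. Emcn was the only member with a lower level in DM+SGLT2i mice than in controls both with and without control replicate 2.

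Plvap (ENSMUSG00000034845, chromosome 8, 71497765 to 71511752) encodes the protein of the diaphragms that span fenestrae and caveolae, and it marks peritubular capillaries and ascending vasa recta rather than glomerular capillaries. It had the widest range of the members, 2.22-fold from the lowest to the highest library. Plvap was at 317, 168 and 177 CPM in the controls, at 373 and 214 CPM in the DM-22 libraries and at 224 and 268 CPM in the DM+SGLT2i libraries. The highest libraries were DM-22 replicate 1 and control replicate 2, and control replicates 8 and 9 were below all others. For Plvap, the log2 fold change was 0.42 ± 0.35 (SE, adjusted p = 0.810) in DM-22 and 0.21 ± 0.35 (SE, adjusted p = 0.9997) in DM+SGLT2i mice. These were 0.71 ± 0.27 (SE, adjusted p = 0.180) and 0.50 ± 0.27 (SE, adjusted p = 0.386) without control replicate 2. Kdr, which is also strong in peritubular capillaries, was lowest where Plvap was highest. The ratio of Plvap to Kdr was 4.84, 1.54 and 1.74 in control replicates 2, 8 and 9, 5.90 and 2.23 in the DM-22 libraries and 2.07 and 2.95 in the DM+SGLT2i libraries, and thus spanned 3.84-fold. The ratio was lowest in control replicates 8 and 9, below every diabetic library. It was highest in DM-22 replicate 1 and control replicate 2, so that the groups overlapped with all 3 controls. In those libraries the 5 descending vasa recta genes summed to 1837 and 2328 CPM, against 929.7 to 1549 CPM elsewhere. Most of each sum was Aqp1, at 1667 CPM in control replicate 2 and 2121 CPM in DM-22 replicate 1. The part of other cells, such as those of tubules, in the Aqp1 level was not tested. Scin and Slc14a1 were also highest in those libraries. Fxyd6 and Crip1 in DM-22 replicate 1 (6.55 and 9.13 CPM) were below DM+SGLT2i replicate 2 (7.08 and 11.4 CPM). The urea transporter of the inner medullary collecting duct, Slc14a2, was at 267 CPM in DM-22 replicate 1, 88.5 CPM in DM+SGLT2i replicate 2, 84.9 CPM in control replicate 2 and 2.84 to 25.6 CPM in the other 4 libraries. The same 3 libraries were the highest for the ratio and for Slc12a1, the sodium, potassium and chloride transporter of the thick limb, at 5579.8, 2549 and 2335 CPM against 602 to 1465 CPM. The part of the medulla in the Plvap level was not tested.

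Of the 7 genes listed for peritubular capillaries, Plvap and Kdr included, 0 passed the adjusted threshold, and the median log2 change was -0.29 in DM-22 and -0.15 in DM+SGLT2i mice, or -0.46 and -0.25 without control replicate 2. Esm1, a secreted proteoglycan induced by VEGF, was at 13.2, 43.3 and 41.1 CPM in the controls, 17.4 and 25.7 CPM in the DM-22 and 15.9 and 15.7 CPM in the DM+SGLT2i libraries. Like Vegfa, it was higher in control replicates 8 and 9 than in the other 5 libraries. The part of Vegfa in the Esm1 level was not tested. For Esm1, the log2 fold change without control replicate 2 was -0.98 ± 0.20 (SE, adjusted p = 0.0897) in DM-22 and -1.39 ± 0.20 (SE, adjusted p = 0.0762) in DM+SGLT2i mice. With all 3 controls it was -0.43 ± 0.51 (SE, adjusted p = 0.851) and -0.84 ± 0.51 (SE, adjusted p = 0.9997). Apln, the ligand of the apelin receptor, was at 9.20 and 10.2 CPM in the DM-22 libraries, below all 3 controls (11.7, 13.9 and 13.1 CPM), a log2 fold change of -0.39 ± 0.15 (SE, adjusted p = 0.804). Npr3, a clearance receptor for natriuretic peptides, was at 6.35 CPM in DM-22 replicate 1 and at 17.6 to 31.3 CPM in the other libraries. The 5 genes of the descending vasa recta had a median log2 change of 0.10 in DM-22 and 0.18 in DM+SGLT2i mice, with 0 past the adjusted threshold, and without control replicate 2 the medians were 0.42 and 0.61. In DM-22 mice, the log2 fold changes of Aqp1 and Scin were 0.19 and 0.38, and 0.42 and 1.05 without that control. Slc14a1, the urea transporter of descending vasa recta, ranged from 0.393 CPM in DM-22 replicate 2 to 18.6 CPM in DM-22 replicate 1.

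Ehd3 (ENSMUSG00000024065, chromosome 17, 73804134 to 73832094) encodes an endocytic membrane-remodelling protein that within the kidney marks glomerular endothelium. It was at 49.3, 30.9 and 33.8 CPM in the controls, at 47.5 and 61.1 CPM in the DM-22 libraries and at 44.7 and 48.4 CPM in the DM+SGLT2i libraries. Control replicates 8 and 9 were below the other 5 libraries, and control replicate 2 lay within the range of the diabetic libraries. The log2 fold change was 0.53 ± 0.23 (SE, adjusted p = 0.804) in DM-22 and 0.32 ± 0.23 (SE, adjusted p = 0.9997) in DM+SGLT2i mice. Without control replicate 2 it was 0.73 ± 0.16 (SE, adjusted p = 0.0931) and 0.52 ± 0.16 (SE, adjusted p = 0.187), and the first of these was the smallest adjusted p of a member in any setting. The 9 podocyte genes, which share the glomerulus with Ehd3, summed to 674, 571 and 519.7 CPM in control replicates 2, 8 and 9, to 366 and 907 CPM in the DM-22 libraries and to 696 and 654 CPM in the DM+SGLT2i libraries. DM-22 replicate 2, the highest library for Ehd3, was also the highest for podocyte genes, whereas DM-22 replicate 1 was the lowest. Ehd3 in DM-22 replicate 1 was above control replicates 8 and 9 and below control replicate 2. The part of glomerular content in the Ehd3 level was not tested. The podocyte genes had a median log2 change of -0.15 in DM-22 and 0.21 in DM+SGLT2i mice, or -0.14 and 0.26 without control replicate 2, and 0 of 9 passed the adjusted threshold. Ehd3 was 12.7% of the CPM of Plvap in DM-22 replicate 1 and 28.5% in replicate 2, with 15.6% to 19.99% in the other 5 libraries.

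Of the 10 genes listed for glomerular endothelium, Ehd3 included, 0 passed the adjusted threshold, and the median log2 change was 0.036 in DM-22 and 0.29 in DM+SGLT2i mice, or 0.061 and 0.48 without control replicate 2. Sost, a Wnt antagonist, was at 0.861, 1.07 and 0.833 CPM in the controls, 1.03 and 0.948 CPM in the DM-22 and 2.27 and 2.13 CPM in the DM+SGLT2i libraries, so that the DM+SGLT2i libraries did not overlap the others. Its log2 difference was 0.93 ± 0.24 (SE, adjusted p = 0.9997) against controls and 0.86 ± 0.26 (SE, adjusted p = 0.881) against DM-22. Plat, tissue plasminogen activator, was at 77.0, 52.9 and 51.0 CPM in the controls, 68.6 and 63.6 CPM in the DM-22 and 70.2 and 71.4 CPM in the DM+SGLT2i libraries, with control replicates 8 and 9 lowest as for Ehd3. Its log2 fold change was 0.16 ± 0.20 (SE, adjusted p = 0.858) in DM-22 and 0.26 ± 0.20 (SE, adjusted p = 0.9997) in DM+SGLT2i mice. Leaving out control replicate 2 gave 0.34 ± 0.11 (SE, adjusted p = 0.137) and 0.44 ± 0.11 (SE, adjusted p = 0.152). Nostrin had a log2 fold change of -0.27 ± 0.23 (SE, adjusted p = 0.812) in DM-22 mice and Tbx3 one of 0.46 ± 0.30 (SE, adjusted p = 0.9997) in DM+SGLT2i mice, and Pi16 differed by 0.92 ± 0.59 (SE, adjusted p = 0.881) between the diabetic groups. Lpl, lipoprotein lipase, which adipocytes and tubule cells also make, ranged from 105 CPM in control replicate 2 to 748 CPM in control replicate 8.

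Across the 10 members, 9 had a fold change above 0 in DM-22 and 8 in DM+SGLT2i mice with all 3 controls, with medians of 0.17 and 0.18 on the log2 scale. Over all genes tested, 50.7% and 47.2% were above 0. Without control replicate 2, 8 members were above 0 in each comparison, with medians of 0.27 and 0.28. The count of members with both DM-22 libraries above all 3 controls was 0, beside 10.8% of all genes tested, and for DM+SGLT2i it was 2 (Pecam1 and Cdh5), beside 5.67%. With control replicates 8 and 9 alone it was 6 of 10 in DM-22 (Cdh5, Tek, Tie1, Eng, Plvap and Ehd3), beside 29.9%, and 6 of 10 in DM+SGLT2i (Pecam1, Cdh5, Tie1, Eng, Plvap and Ehd3), beside 27.8%. At an unadjusted p under 0.05, the counts were 0 of 10 and 1 of 10 with all 3 controls, beside 4.47% and 1.08% of all genes. Scaling by median of ratios gave 1 of 10 in both, beside 648 and 156 of 13981 genes. With control replicates 8 and 9 alone the counts were 3 of 10 in DM-22 (Cdh5, Plvap and Ehd3), beside 25.4% of all genes, and 3 of 10 in DM+SGLT2i (Cdh5, Eng and Ehd3), beside 17.9%. The comparisons share their controls. Without DM-22 replicate 1, the median in DM-22 mice was 0.025, against 0.31 without DM-22 replicate 2.

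**Figure D4:**
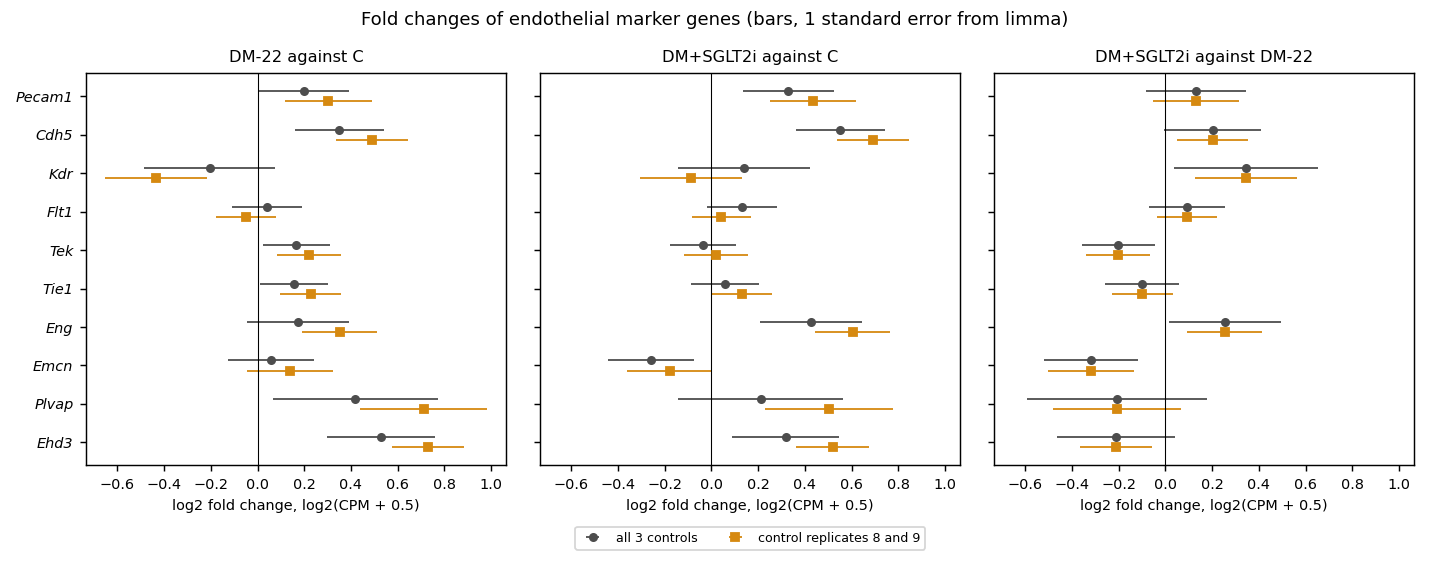
Log2 fold changes of the 10 members in the 3 comparisons (points, bars of 1 standard error from limma), with all 3 controls (circles) and with control replicates 8 and 9 only (squares). Cdh5, Eng, Plvap and Ehd3 move farther from 0 without control replicate 2, Ehd3 in DM-22 mice from 0.53 to 0.73, and Kdr in DM-22 mice moves from -0.21 to -0.43.

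The direct comparison of the treated with the untreated diabetic mice addressed whether SGLT2 inhibition in diabetes went with other levels of these genes. The 10 members were split evenly, with 5 above and 5 below 0 and a median log2 difference of -0.0036, beside 0.0045 over all genes tested. The largest differences were 0.34 ± 0.31 (SE, adjusted p = 0.881) for Kdr, -0.32 ± 0.20 (SE, adjusted p = 0.881) for Emcn and 0.25 ± 0.24 (SE, adjusted p = 0.881) for Eng. The 95% intervals were -0.39 to 1.08 for Kdr, -0.80 to 0.16 for Emcn, -0.32 to 0.83 for Eng and -1.13 to 0.72 for Plvap, so that differences of about this size could not be told from 0 with 2 libraries in each group. The groups did not overlap for 3 members (Tek, Eng and Emcn), beside 41.5% of all genes tested. For Plvap the sign rested on 1 library: the log2 difference was -0.21, and 0.19 without DM-22 replicate 1.

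All 34 other pan-endothelial genes listed were tested, and 0 passed the adjusted threshold in any comparison. Of these, 23 had a fold change above 0 in DM-22 and 27 in DM+SGLT2i mice, with medians of 0.14 and 0.12, and without control replicate 2 the medians were 0.24 and 0.28. Sox18, a transcription factor of endothelial cells, had the smallest p, at 16.3, 11.6 and 11.1 CPM in the controls, 23.1 and 21.6 CPM in the DM-22 and 17.4 and 22.7 CPM in the DM+SGLT2i libraries. All 4 diabetic libraries were above the 3 controls. Its log2 fold change was 0.78 ± 0.21 (SE, adjusted p = 0.804) in DM-22 and 0.61 ± 0.21 (SE, adjusted p = 0.9997) in DM+SGLT2i mice, with unadjusted p of 0.00942 and 0.0260. The values for Sox18 without control replicate 2 were 0.94 ± 0.16 (SE, adjusted p = 0.0820) and 0.78 ± 0.16 (SE, adjusted p = 0.118). Cldn5, the claudin of endothelial tight junctions, was at 15.3, 8.74 and 7.76 CPM in the controls and 12.9 and 14.1 CPM in the DM-22 libraries. In DM-22 mice its log2 fold change was 0.39 ± 0.29 (SE, adjusted p = 0.804) with all 3 controls and 0.68 ± 0.15 (SE, adjusted p = 0.0931) without control replicate 2. Ets1 was at 34.3 and 32.9 CPM in the DM-22 libraries, below the 3 controls at 40.4, 37.7 and 44.6 CPM, with a log2 fold change of -0.28 ± 0.13 (SE, adjusted p = 0.804). The apelin receptor gene Aplnr had a log2 fold change of 0.53 ± 0.27 (SE, adjusted p = 0.9997) in DM+SGLT2i mice. Ushbp1, at 7.04, 11.9 and 18.5 CPM in the controls and 8.90 and 8.76 CPM in the DM+SGLT2i libraries, had one of -0.37 ± 0.37 (SE, adjusted p = 0.9997) with all 3 controls and -0.72 ± 0.23 (SE, adjusted p = 0.198) without control replicate 2. The summed level of the 34 genes was 979, 639.9 and 699 CPM in the controls, 1052 and 728 CPM in the DM-22 and 798 and 890.0 CPM in the DM+SGLT2i libraries. That of the 10 members was 1035, 787 and 835 CPM, 1141 and 905 CPM, and 989.6 and 1046 CPM, in the same order. Both sums were lowest in control replicate 8, then in control replicate 9 and DM-22 replicate 2, and highest in DM-22 replicate 1.

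Vessel types and activation were followed with 4 further lists, and 0 of their genes passed the adjusted threshold. The 12 arterial genes had a median log2 change of 0.0053 in DM-22 and 0.091 in DM+SGLT2i mice, and 0.092 and 0.19 without control replicate 2. Gja5, the connexin of arterial endothelium, was at 7.06, 3.43 and 4.06 CPM in the controls, 8.98 and 9.25 CPM in the DM-22 and 6.11 and 6.05 CPM in the DM+SGLT2i libraries. Both DM-22 libraries lay above all controls, with a log2 fold change of 0.90 ± 0.29 (SE, adjusted p = 0.804), and 1.18 ± 0.16 (SE, adjusted p = 0.0820) without control replicate 2. The Notch ligand Dll4, itself induced by VEGF, was at 9.31, 15.7 and 20.7 CPM in the controls, 9.56 and 11.5 CPM in the DM-22 and 10.4 and 9.20 CPM in the DM+SGLT2i libraries, and like Vegfa and Esm1 it was higher in control replicates 8 and 9 than elsewhere. The part of Vegfa in the Dll4 level was not tested either. Fbln5 had a log2 fold change of -0.47 ± 0.22 (SE, adjusted p = 0.804) in DM-22 and Notch4 one of 0.23 ± 0.18 (SE, adjusted p = 0.9997) in DM+SGLT2i mice. The 5 venous genes tested of 6 had medians of -0.13 and 0.41, and 6 lymphatic genes tested of 7 had medians of 0.14 and 0.20. The venous medians without control replicate 2 were 0.34 and 0.87, so that the sign in DM-22 mice turned, and the lymphatic ones 0.24 and 0.34. Of the 18 activation genes, 16 were tested, with medians of -0.12 and 0.18 with all 3 controls. That in DM-22 mice also turned in sign without control replicate 2, where the medians were 0.28 and 0.47. Vcam1, the leukocyte adhesion molecule that tubule cells can also make, was at 39.7, 9.56 and 12.3 CPM in the controls, 15.0 and 12.9 CPM in the DM-22 and 23.5 and 21.5 CPM in the DM+SGLT2i libraries. In DM+SGLT2i mice its log2 fold change was 0.41 ± 0.55 (SE, adjusted p = 0.9997) with all 3 controls and 1.02 ± 0.17 (SE, adjusted p = 0.0968) without control replicate 2, which was the highest library. Sele, E-selectin, was at 1.55 and 1.26 CPM in the DM+SGLT2i libraries against 0.990, 0.400 and 0.470 CPM in the controls, a log2 fold change of 0.80 ± 0.39 (SE, adjusted p = 0.9997).

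Markers of the cells around the vessels gave the following values. The 12 pericyte and smooth muscle genes had a median log2 change of -0.12 in DM-22 and 0.57 in DM+SGLT2i mice, with 3 of 12 at an unadjusted p under 0.05 in the latter, beside 1.08% of all genes, and 0 past the adjusted threshold. The medians without control replicate 2 were 0.058 and 0.75, with 8 of 12 in DM+SGLT2i mice beside 17.9%. Pdgfrb, a receptor of pericytes and other mesenchymal cells, was at 59.4, 39.4 and 49.9 CPM in the controls, 31.7 and 41.8 CPM in the DM-22 and 69.3 and 61.5 CPM in the DM+SGLT2i libraries, a log2 difference of 0.83 ± 0.23 (SE, adjusted p = 0.881) between the diabetic groups. The smooth muscle genes Myh11 and Cnn1 were at 207 and 35.9 CPM in DM+SGLT2i replicate 1, against at most 33.7 and 3.66 CPM elsewhere. Their part in the higher Cdh5 and lower Emcn of that library was not tested. The 6 mesangial genes had medians of -0.38 and 0.24, or -0.33 and 0.44 without control replicate 2. The macrophage gene C1qa was the one listed gene past the adjusted threshold, in DM+SGLT2i mice without control replicate 2, with a log2 fold change of 1.502 ± 0.13 (SE, adjusted p = 0.0490), whereas with all 3 controls it was 0.59 ± 0.80 (SE, adjusted p = 0.9997). It was at 93.9, 13.7 and 13.7 CPM in the controls, 31.3 and 27.8 CPM in the DM-22 and 37.3 and 42.1 CPM in the DM+SGLT2i libraries, and highest in control replicate 2. The 10 macrophage and leukocyte genes had medians of -0.063 and 0.43, 3 platelet genes tested of 6 had medians of 0.089 and -0.14, and 2 red blood cell genes tested of 6 had medians of 0.89 and 0.35. When that replicate was left out, 9 of the macrophage and leukocyte genes were tested and had medians of 0.51 and 1.117, with 5 and 6 higher at an unadjusted p under 0.05, beside 25.4% and 17.9% of all genes in either direction. For platelet genes these medians were 0.80 and -0.21 and for red blood cell genes 1.48 and 0.94. Platelets also carry Pecam1, and the 4 platelet genes in the table summed to 7.70 to 10.3 CPM, whose part in the Pecam1 level was not tested. The medians in DM-22 and DM+SGLT2i mice were -0.16 and -0.11 for 8 proximal tubule genes, 0.23 and 0.30 for 8 distal nephron genes, -0.58 and 1.07 for 7 urothelium and inner medulla genes and -1.38 and 1.89 for 5 adipose genes tested of 6, and 0 of these genes passed the adjusted threshold. Leaving out control replicate 2 gave -0.51 and -0.61, 0.61 and 0.51, 0.40 and 2.12 and -1.82 and 1.51 in the same order. The urothelium and inner medulla genes turned in DM-22 mice from 0 of 7 to 7 of 7 above 0. The DM+SGLT2i libraries differed from each other in these genes. Upk1a, Upk1b and Krt5 were at 37.8, 31.8 and 34.7 CPM in replicate 1, against 2.31, 0.903 and 0.307 CPM in replicate 2. Only Slc14a2 was higher in replicate 2, at 88.5 against 14.8 CPM.

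Among themselves, the members fell into different patterns over the 7 libraries. Pearson's r of a member with the mean of the other 9, each as log2(CPM + 0.5) centred on its own mean, was 0.901 for Pecam1, 0.875 for Eng, 0.866 for Cdh5, 0.860 for Tie1 and 0.814 for Plvap. It was 0.626 for Tek and 0.581 for Ehd3, near 0 for Emcn (0.0704) and Flt1 (-0.0998), and negative for Kdr (-0.771). The genes of a library share its depth of sequencing and its scaling, and n is 7, so that these r are a description with no test. The tested genes most like the mean of the 10 members were Abi3 (0.991), Tex15 (0.979), Dubr (0.978), Irs1 (0.967), Akr1c13 (0.966), Zfp747 (0.965), Ccdc92 (0.965), Lrfn3 (0.964), Slc7a1 (0.963) and Ddit4l (0.958). Those most opposite were Fign (-0.982), Kdsr (-0.980), Zfp93 (-0.978), Cldn34c1 (-0.977) and Vldlr (-0.973). Abi3, an adaptor of actin remodelling, was at 6.93, 5.16 and 5.58 CPM in the controls, 7.31 and 6.29 CPM in the DM-22 and 6.73 and 6.99 CPM in the DM+SGLT2i libraries. As for the members' mean, control replicates 8 and 9 were lowest and DM-22 replicate 1 was highest.

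**Figure D5:**
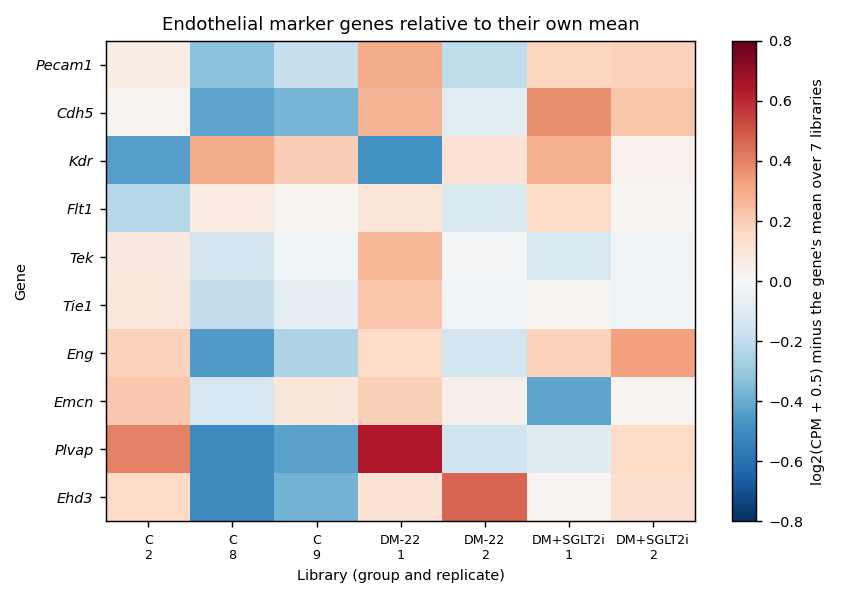
Level of each member in each library as log2(CPM + 0.5) minus the gene's mean over the 7 libraries (colours). Most members are low in control replicates 8 and 9 and high in DM-22 replicate 1, Kdr shows the opposite, and Emcn stands out as low in DM+SGLT2i replicate 1 at 45.2 CPM.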

How the data were processed

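RNA was measured in 7 libraries of mouse kidney, in 3 groups taken from the sample labels (3 C, 2 DM-22 and 2 DM+SGLT2i). The authors deposited log2 values for 17537 genes, CPM scaled by the TMM method with a small constant added, made with bcl2fastq, FastQC, Trim Galore, STAR and edgeR on build mm10 per the submitters' processing notes. The read counter and the annotation are not given in the sources used here. The library kit keeps the strand. The values share a floor of -4.66, and taking its antilogarithm (0.0395 CPM) off that of each value gave CPM, which corresponded to whole reads within 0.05 reads for 100% of the 115036 values under 10000 reads.

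The 13976 genes that reached 1 CPM in 2 or more libraries entered the limma test (version 3.58.1, R 4.3.3; lmFit, eBayes with a trend, two-sided) on log2(CPM + 0.5), with the 3 groups fitted together and p-values adjusted over all genes by the Benjamini-Hochberg method at 0.05. Fold changes are on this log2(CPM + 0.5) scale. The test was run on simulated reads with the same spread for every gene and no library set apart. That run therefore does not cover a library such as control replicate 2. All comparisons were repeated without control replicate 2. Positions and exon lengths are from GENCODE release M21, in which all 17537 identifiers were found and 17476 symbols were the same. Tables and figures were made with Python 3.11.15.

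The genes and the 21 lists were chosen with earlier results of these data known. Named are the 10 members, in each other list genes past the threshold and those with the 2 smallest p in a comparison (not all are printed), and the genes most like and most opposite to the members' mean. Other members of the lists were chosen after their values were seen. Alternatives left out each library, changed the pseudocount to 0.1 or 2 CPM or to the deposited log2 values, dropped the filter, scaled by library totals or by median of ratios, used voom, fitted only the groups compared, or added a replicate block.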

Additional observations from a re-analysis of the deposited data

How the results depend on the processing

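The count of genes called stayed at 0 in all 3 comparisons under every alternative that kept all libraries. Over the fits that leave out 1 library it lay between 0 and 2 for DM-22 against C and between 0 and 17 for DM+SGLT2i against C, with the upper values reached without control replicate 2, and it was 0 for DM+SGLT2i against DM-22. No member passed the adjusted threshold under any of the 16 alternatives, and the smallest adjusted p of a member was 0.0931. Of 460 values of members under these alternatives, 443 kept their sign. When libraries were scaled by their totals alone, which put the median of all genes between the diabetic groups at 0.11 in place of 0.0045, Flt1 and Emcn in DM-22 against C came to -0.048 and -0.029, and Tie1 in DM+SGLT2i against DM-22 came to 0.0081. The other 14 changes of sign came from leaving out 1 library. In DM-22 against C they came without DM-22 replicate 1 for Pecam1, Kdr, Flt1 and Emcn, without control replicate 2 for Flt1 and without control replicate 8 for Emcn. In DM+SGLT2i against C they came without control replicate 2 for Kdr and Tek, without control replicate 8 for Tie1 and without DM+SGLT2i replicate 1 for Tek. Between the diabetic groups they came without DM-22 replicate 2 for Pecam1 and Flt1 and without DM-22 replicate 1 for Tie1 and Plvap. The log2 fold changes over these fits ranged from -0.054 to 0.45 for Pecam1, from -0.51 to 0.095 for Kdr, from -0.065 to 0.15 for Flt1 and from -0.037 to 0.14 for Emcn in DM-22 against C. In DM+SGLT2i against C they ranged from -0.090 to 0.28 for Kdr, from -0.092 to 0.018 for Tek and from -0.0089 to 0.13 for Tie1, and in DM+SGLT2i against DM-22 from -0.12 to 0.38 for Pecam1, from -0.015 to 0.20 for Flt1, from -0.22 to 0.028 for Tie1 and from -0.61 to 0.19 for Plvap. The cause was not tested.

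The labels give DM-22 and DM+SGLT2i the same replicate numbers, 1 and 2. The correlation of deviations of libraries with the same number was -0.041, and nothing in the labels ties them. Whether they share more than a number cannot be told from this. With the replicate block 0 genes were called, as without it, and 614 in place of 547 genes had an unadjusted p under 0.05. With all 3 controls, scaling by totals alone gave 48 higher and 675 lower genes at the unadjusted level in DM-22 against C, in place of 166 and 459, and 445 and 69 in DM+SGLT2i against DM-22, in place of 315 and 232.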
